A study of Mus musculus with 6 samples.

Results

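The 10 circadian clock genes *Arntl*, *Clock*, *Per1*, *Per2*, *Per3*, *Cry1*, *Cry2*, *Nr1d1*, *Nr1d2* and *Dbp* were followed across 6 libraries of mouse visual cortex. They were taken by symbol, and each matched 1 of the 24453 gene rows of the deposited table, whose values are FPKM (fragments per kilobase of exon and library of equal mapped size). The groups were knockouts of *Chrdl1* (Chrdl1 KO, n = 3) and wild type (WT, n = 3), all male C57BL/6J mice at postnatal day 14 that were kept under 12 hours of light and 12 of dark and perfused with 4% paraformaldehyde. *Chrdl1* encodes a secreted antagonist of bone morphogenetic proteins. Neither the kind of knockout allele nor the hour at which tissue was collected is given in the sources used here. Each library title opens with the genotype and a code, as in KO1011 and WT1011, and each of the 3 codes has 1 KO and 1 WT library, called the code-1011, code-1012 and code-1013 pairs. The labels do not say what a code stands for, nor that libraries are separate animals, so the spread behind each p-value is that between libraries and may be technical.

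The clock is a loop of transcription and feedback that runs in most cells, cortical neurons and glia included. The proteins of *Arntl* (also called *Bmal1*) and *Clock* pair and bind E-box DNA in front of the *Per*, *Cry*, *Nr1d1*, *Nr1d2* and *Dbp* genes. PER and CRY proteins return to block that pair, NR1D1 and NR1D2 (the REV-ERBs) repress *Arntl*, and DBP drives further genes through D-box DNA. Where the loop runs, *Arntl* messenger RNA peaks at the opposite time of day from that of *Nr1d1* and *Dbp*.

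Promoter windows were available from RefSeq (build GRCm38.p6, the assembly also named mm10) for 9 of the 10 genes, in 13 windows of 300 bases, each with 250 bases before a transcript start and 50 from it on; *Per2* had none. They were searched on both strands for the E-box CACGTG, the D-box TTANGTAA, the RORE core TAGGTCA (bound by the REV-ERB and ROR receptors) and the cyclic AMP element TGACGTCA. The E-box was found in 2 of the 9 genes (8.09% of all 27025 genes with a window), the D-box in 1 (2.72%), the RORE core in 1 (2.97%) and the cyclic AMP element in 0 (2.03%), and no match overlapped another. The windows with a match are shown, and that of *Dbp*, the member that passed between title codes under every alternative, although it holds none. The *Per1* window belongs to a start upstream of the gene model in the deposited table, and the *Arntl* window to a start downstream of that of its model. The *Arntl* window at the start of the model holds no match. Capitals mark the matches, and each line runs 5′ to 3′ on the gene's strand.
*Per1*, chr11:69098699-69098998, plus strand, E-box starting 166 bases before the start: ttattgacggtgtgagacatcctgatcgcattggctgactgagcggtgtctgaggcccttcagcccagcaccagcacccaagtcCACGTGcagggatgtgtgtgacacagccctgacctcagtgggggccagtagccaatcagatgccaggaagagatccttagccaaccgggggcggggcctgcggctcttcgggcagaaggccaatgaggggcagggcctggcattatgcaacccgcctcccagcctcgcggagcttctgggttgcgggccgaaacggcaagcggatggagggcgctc
*Cry1*, chr10:85185005-85185304, minus strand, E-box starting 60 bases before the start: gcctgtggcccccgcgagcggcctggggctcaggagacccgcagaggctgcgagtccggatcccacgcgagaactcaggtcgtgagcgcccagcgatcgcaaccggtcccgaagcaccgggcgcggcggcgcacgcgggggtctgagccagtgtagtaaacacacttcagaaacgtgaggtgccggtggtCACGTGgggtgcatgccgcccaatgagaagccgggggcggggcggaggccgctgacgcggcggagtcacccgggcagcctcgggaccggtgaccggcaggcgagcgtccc
*Per3*, chr4:151044616-151044915, minus strand, D-boxes starting 205 and 158 bases before the start: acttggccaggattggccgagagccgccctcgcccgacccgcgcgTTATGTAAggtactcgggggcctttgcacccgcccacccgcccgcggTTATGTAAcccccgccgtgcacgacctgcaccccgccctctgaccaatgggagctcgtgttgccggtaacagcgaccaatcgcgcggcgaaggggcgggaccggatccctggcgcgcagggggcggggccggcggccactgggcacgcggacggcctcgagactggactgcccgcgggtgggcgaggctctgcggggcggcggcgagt
*Arntl*, chr7:113207261-113207560, plus strand, RORE core starting 30 bases after the start: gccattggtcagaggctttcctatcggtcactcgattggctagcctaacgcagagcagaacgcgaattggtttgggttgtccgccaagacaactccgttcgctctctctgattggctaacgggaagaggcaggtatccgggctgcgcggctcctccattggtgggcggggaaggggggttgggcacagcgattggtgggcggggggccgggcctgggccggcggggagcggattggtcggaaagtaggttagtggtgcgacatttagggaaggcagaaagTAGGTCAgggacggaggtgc
*Dbp*, chr7:45704997-45705296, plus strand, no match: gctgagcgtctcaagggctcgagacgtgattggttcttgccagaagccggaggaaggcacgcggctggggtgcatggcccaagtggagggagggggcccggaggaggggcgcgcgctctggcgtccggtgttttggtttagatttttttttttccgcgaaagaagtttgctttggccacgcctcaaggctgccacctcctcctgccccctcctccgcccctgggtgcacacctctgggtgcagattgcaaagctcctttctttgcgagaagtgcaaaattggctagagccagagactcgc
A match describes letters in the window and not a bound site. A window without a match says only that these letters are not in these bases.

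Estimated depth was 22.7 to 31.9 megareads in KO libraries and 27.5 to 38.2 megareads in WT libraries. *Chrdl1* measured 0.161 ± 0.036 FPKM in KO and 3.44 ± 0.299 FPKM in WT (SD, n = 3 each), which matches the labels. The 7 cortical excitatory neuron markers summed to 710 to 832 FPKM in KO and 717 to 816 FPKM in WT. The 5 markers of the suprachiasmatic nucleus, the hypothalamic seat of the master clock, summed to at most 0.705 FPKM in KO and 0.5 FPKM in WT, with *Six6* at 0 in every library. The 8 striatal neuron markers, none at 0, were all lower in KO on average (0 called), with sums of 279, 126 and 122 FPKM in KO1011, KO1012 and KO1013, against 265, 249 and 285 FPKM in WT. In bulk tissue, fewer cells of a type and less RNA per cell cannot be told apart.

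The members spanned from *Nr1d1*, at 60.4 ± 2.50 FPKM over all libraries, to *Per3*, at 4.00 ± 0.641 FPKM (SD, n = 6). Since FPKM is a level per exon length, genes can be ordered by it. *Cry2* (35.0 FPKM) followed *Nr1d1*, then *Dbp* (27.7), *Per1* (18.9), *Nr1d2* (14.2), *Arntl* (10.1), *Clock* (9.58), *Cry1* (5.17), *Per2* (4.53) and *Per3*. The lowest *Nr1d1* library (57.4 FPKM) stood above the highest *Cry2* library (36.9 FPKM). The ranges of *Cry2* and *Dbp*, of *Per1* and *Nr1d2*, of *Arntl* and *Clock*, and of *Cry1*, *Per2* and *Per3* overlapped. The rarest member in reads was *Cry1*, with 353 reads in the library where it had fewest, a counting error of 5.32%. Spread over the 6 libraries, as a coefficient of variation, ran from 4.13% for *Nr1d1* and 4.45% for *Arntl* to 18.5% for *Per1* and 19.7% for *Per2*.

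**Figure D1:**
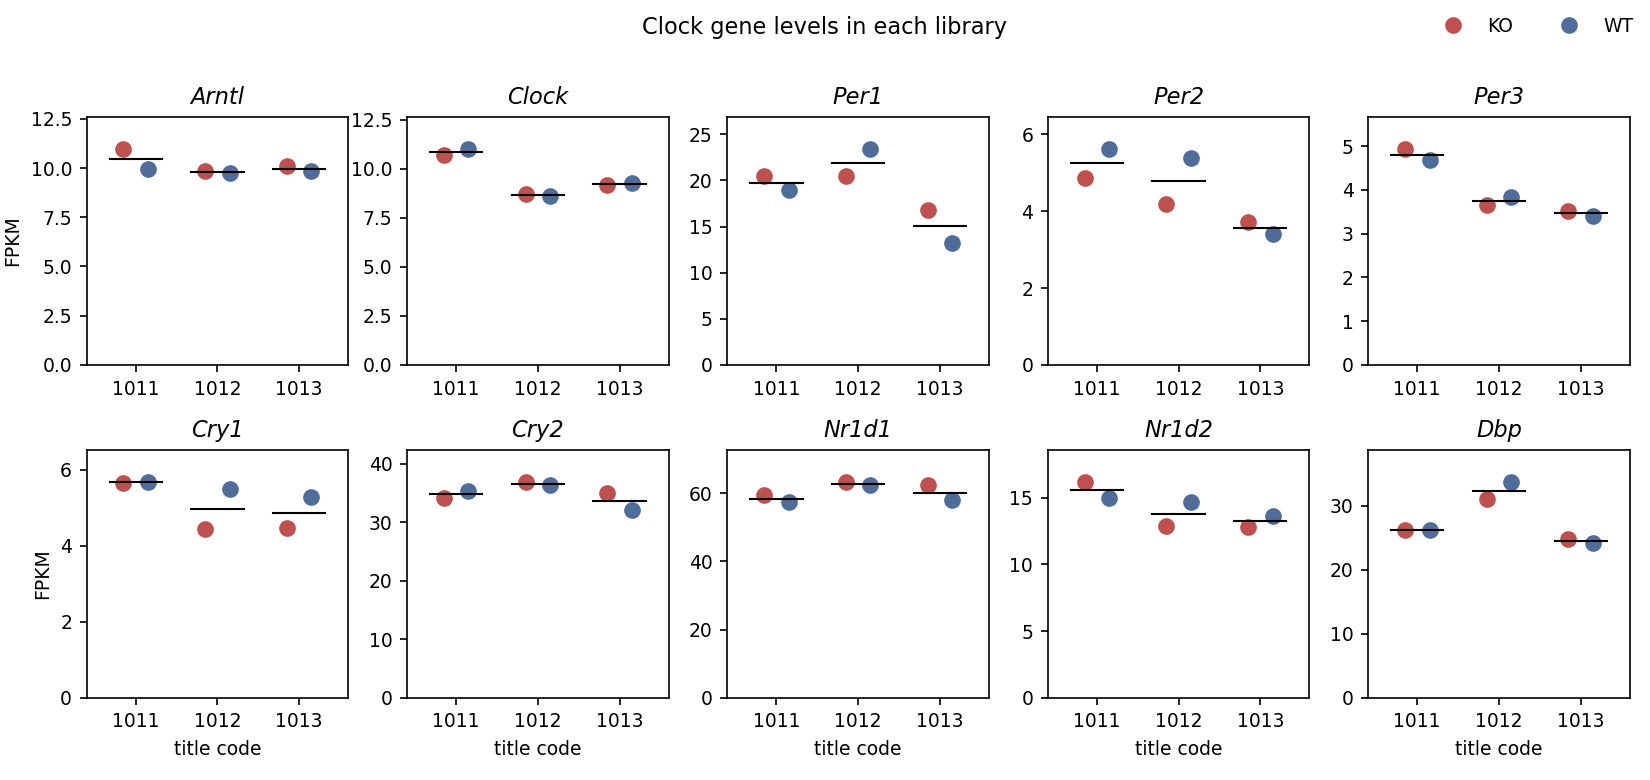
FPKM of each clock gene (vertical axis, own scale from 0 for each gene) in each library, by title code (horizontal axis), with KO in red left of WT in blue and a black line at the mean of the code. *Dbp* stood at 31.0 FPKM in KO and 33.7 FPKM in WT for code-1012, above the 24.2 to 26.3 FPKM of the other libraries, while *Arntl* stayed between 9.77 and 10.95 FPKM.

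The comparison of KO with WT asks whether loss of *Chrdl1* goes with a change in clock transcripts. None of the 10 members passed in either direction by limma on log2(FPKM + 1) (0 called, and 0 at an unadjusted p under 0.05), beside 0.00777% of all 12863 tested genes, which is 1 gene, *Chrdl1*, and 81 genes at an unadjusted p under 0.05. KO and WT values overlapped for each of them, and for all but 379 of the tested genes. The limma-voom fit to recovered reads also called 0 members. With the title code as a replicate block the count was also 0, against 0.00777% of all genes, and at an unadjusted p under 0.05 it was again 0 of 10, against 503 of all genes. Differences are given as KO minus WT on the log2(FPKM + 1) scale, which understates changes of low genes. Intervals come from the fit without the block unless stated, so they also hold the spread between codes. The members had 5 positive and 5 negative differences and a median of 0.00, against a median of 0.01 over all tested genes.

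Among the activators, *Arntl* (chromosome 7, 113207465 to 113314126 in mm10) measured 10.95, 9.83 and 10.1 FPKM in KO1011, KO1012 and KO1013, against 9.93, 9.77 and 9.83 FPKM in the WT libraries of the same codes. KO1011 was the highest and the other 5 lay close together. The difference was 0.06 (95% interval -0.11 to 0.22), higher in KO in 3 of 3 pairs at 0.13, 0.01 and 0.04. *Clock* (chromosome 5, 76209868 to 76303502), whose protein is the partner of ARNTL, measured 10.7, 8.71 and 9.16 FPKM in KO and 10.99, 8.63 and 9.28 FPKM in WT. Its KO and WT libraries differed by at most 0.034 in any code. The difference was -0.01 (interval -0.27 to 0.24, and -0.13 to 0.10 with the block).

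Of the *Per* repressors, *Per1* (chromosome 11, 69100158 to 69109957), which neuronal activity also induces, measured 20.5, 20.5 and 16.8 FPKM in KO and 18.9, 23.4 and 13.3 FPKM in WT. The WT libraries held both the highest and the lowest value. Its difference of 0.08 had the widest interval of the 10, -0.35 to 0.51 (-0.12 to 0.29 with the block). The pairs gave 0.11, -0.18 and 0.32. *Per2* (chromosome 1, 91415982 to 91459328) measured 4.88, 4.20 and 3.73 FPKM in KO and 5.61, 5.38 and 3.42 FPKM in WT. KO was lower in the code-1011 and code-1012 pairs and higher in the code-1013 pair (-0.17, -0.29 and 0.10). The difference was -0.12 (interval -0.50 to 0.26, and -0.32 to 0.07 with the block). It was -0.31 without WT1013 and -0.016 without WT1011. *Per3* (chromosome 4, 151003655 to 151044665), the least abundant member, measured 4.93, 3.65 and 3.52 FPKM in KO and 4.68, 3.83 and 3.41 FPKM in WT. Its difference was 0.01 (interval -0.30 to 0.33, and -0.13 to 0.16 with the block).

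*Cry1*, whose protein is the partner of PER proteins (chromosome 10, 85131700 to 85185054), measured 5.66, 4.46 and 4.46 FPKM in KO and 5.68, 5.50 and 5.29 FPKM in WT. KO1012 and KO1013 lay below every other library, and the code-1011 pair held the same level, so the pairs gave 0.00, -0.25 and -0.20. The difference was -0.15 (interval -0.38 to 0.08, limma unadjusted p = 0.161, adjusted p = 1; -0.25 to -0.10 with libraries or pairs left out), and with the replicate block its interval was -0.31 to 0.01 (unadjusted p = 0.0562, adjusted p = 0.999). Of all tested genes, 95.1% had a smaller difference. The striatal marker sum was low in the same libraries, KO1012 and KO1013, and its part in the *Cry1* values was not tested. *Cry2* (chromosome 2, 92403647 to 92434069) measured 34.2, 36.9 and 35.0 FPKM in KO and 35.4, 36.4 and 32.1 FPKM in WT, a difference of 0.03 (interval -0.14 to 0.20).

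The REV-ERB gene *Nr1d1* (chromosome 11, 98767932 to 98775377) measured 59.3, 63.2 and 62.3 FPKM in KO and 57.4, 62.4 and 58.1 FPKM in WT. KO was higher in 3 of 3 pairs by 0.05, 0.02 and 0.10, and the difference of 0.05 had an interval of -0.11 to 0.22. Its paralog *Nr1d2* (chromosome 14, 18204056 to 18239106) measured 16.2, 12.9 and 12.8 FPKM in KO and 15.0, 14.7 and 13.6 FPKM in WT, a difference of -0.05 (interval -0.28 to 0.18) with pairs at 0.10, -0.17 and -0.08. With the block the intervals of both REV-ERB genes also crossed 0, at -0.04 to 0.15 for *Nr1d1* and -0.20 to 0.10 for *Nr1d2*. *Dbp* (chromosome 7, 45705247 to 45710203), the output factor of the set, measured 26.3, 31.0 and 24.8 FPKM in KO and 26.2, 33.7 and 24.2 FPKM in WT. Its difference was -0.03 (interval -0.34 to 0.29, and -0.14 to 0.09 with the block).

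**Figure D2:**
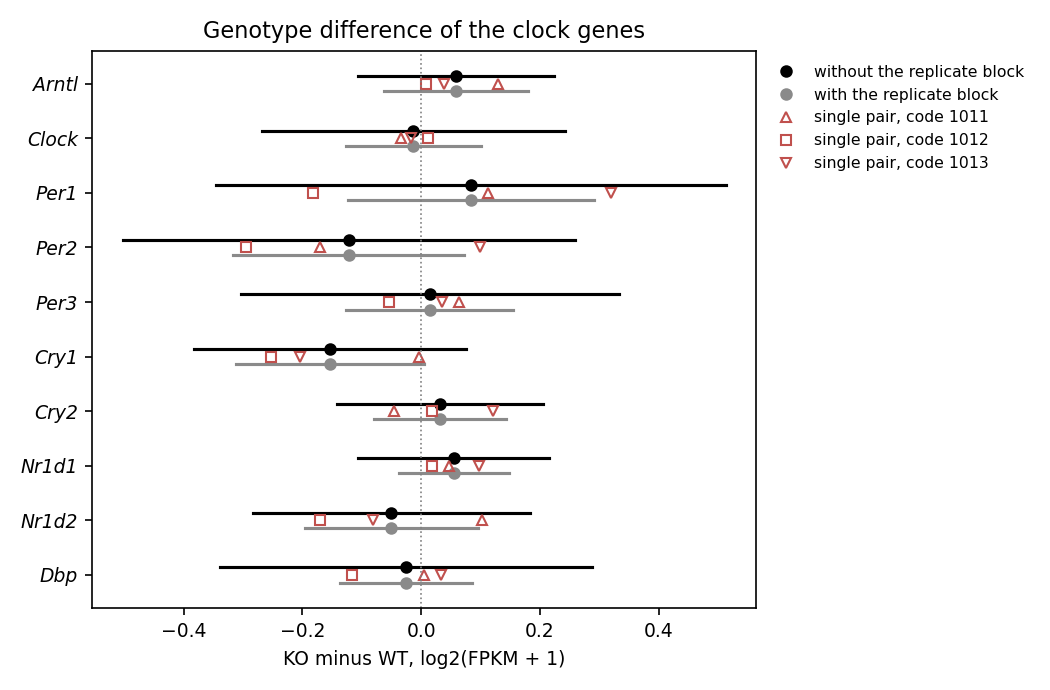
KO minus WT on the log2(FPKM + 1) scale (horizontal axis) for each clock gene (rows). Circles and lines give the limma difference and its 95% interval, black without and grey with the replicate block, and open symbols give the single pairs; all 20 intervals cross 0, with *Cry1* the farthest from it at -0.15.

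Title codes were then compared, with genotype as a covariate, by the limma F test across all tested genes. Of the 10 members 5 passed (*Dbp*, *Per3*, *Clock*, *Per1* and *Per2*), which is 50% of them, beside 30.6% of all tested genes (3936 of 12863). The range between the highest and the lowest code mean had a median of 0.26 over the members and 0.20 over all tested genes, on the log2(FPKM + 1) scale. Code differences were therefore common throughout the table. Each code rests on 1 KO and 1 WT library.

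*Dbp* averaged 32.4 FPKM in the code-1012 pair, 26.3 FPKM in the code-1011 pair and 24.5 FPKM in the code-1013 pair, a 1.32-fold range (0.39 on the log2 scale, limma F test adjusted p = 0.00911). Both code-1012 libraries stood above the other 4. *Per1* had the same order of codes, at 21.9, 19.7 and 15.0 FPKM, with a 1.46-fold range (0.52, adjusted p = 0.0243). Both code-1013 libraries were its lowest, but KO and WT of that code differed by 0.32.

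*Per3* averaged 4.803 FPKM in the code-1011 pair, 3.74 in the code-1012 pair and 3.46 FPKM in the code-1013 pair (0.38, adjusted p = 0.0189). *Per2* ran in the same order, at 5.25, 4.79 and 3.57 FPKM (1.47-fold, 0.45, adjusted p = 0.0315), with KO1012 (4.20 FPKM) below both libraries of code-1011. Thus 4 of the 5 members that passed were lowest in code-1013, while 2 (*Dbp* and *Per1*) were highest in code-1012 and *Per2*, *Per3* and *Clock* in code-1011. Among all 3936 genes that passed, 16.3% were lowest in code-1013, 38.3% highest in code-1012 and 36.6% highest in code-1011.

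*Clock* averaged 10.9 FPKM in the code-1011 pair, 9.22 in the code-1013 pair and 8.67 FPKM in the code-1012 pair (1.25-fold, 0.29, adjusted p = 0.0228). It was lowest in the code in which *Dbp* was highest. *Arntl*, the member whose cycle opposes that of *Dbp*, did not pass, with 10.4, 9.97 and 9.80 FPKM in the code-1011, code-1013 and code-1012 pairs (0.08, adjusted p = 0.533), and 12.3% of tested genes had a smaller range. *Nr1d1*, also in antiphase to *Arntl*, did not pass either, at 62.8, 60.2 and 58.3 FPKM in the code-1012, code-1013 and code-1011 pairs (0.11, adjusted p = 0.245).

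The other members did not pass. *Nr1d2* averaged 15.6, 13.8 and 13.2 FPKM in the code-1011, code-1012 and code-1013 pairs (0.22, adjusted p = 0.110). *Cry1* was at 5.67, 4.98 and 4.87 FPKM in the same codes (0.19, adjusted p = 0.187), and its KO-to-WT gap within codes was as large as 0.25. *Cry2* was at 36.6, 34.8 and 33.6 FPKM in the code-1012, code-1011 and code-1013 pairs (0.12, adjusted p = 0.254).

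Single libraries decided several of these calls. *Dbp* passed under all 12 alternatives, with adjusted p of 0.00241 to 0.0440. Without WT1013 it was the only member to pass, and the ranges of *Per1* and *Per2* were 0.34 (adjusted p = 0.136) and 0.28 (adjusted p = 0.184). *Per3* was also lost without KO1011 or KO1013 (adjusted p = 0.0800 and 0.0641), and *Clock* without any one library but KO1012 (0.0547 to 0.0895). Their ranges stayed near those of all 6 libraries, at 0.34 to 0.39 for *Per3* and 0.28 to 0.31 for *Clock* in the fits that lost the call. *Nr1d2* passed without WT1011 (adjusted p = 0.0315). The highest code of *Per1* was code-1011 without WT1012, and that of *Per2* was code-1012 without KO1012. A code with 1 library left is assumed to vary like the others.

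**Figure D3:**
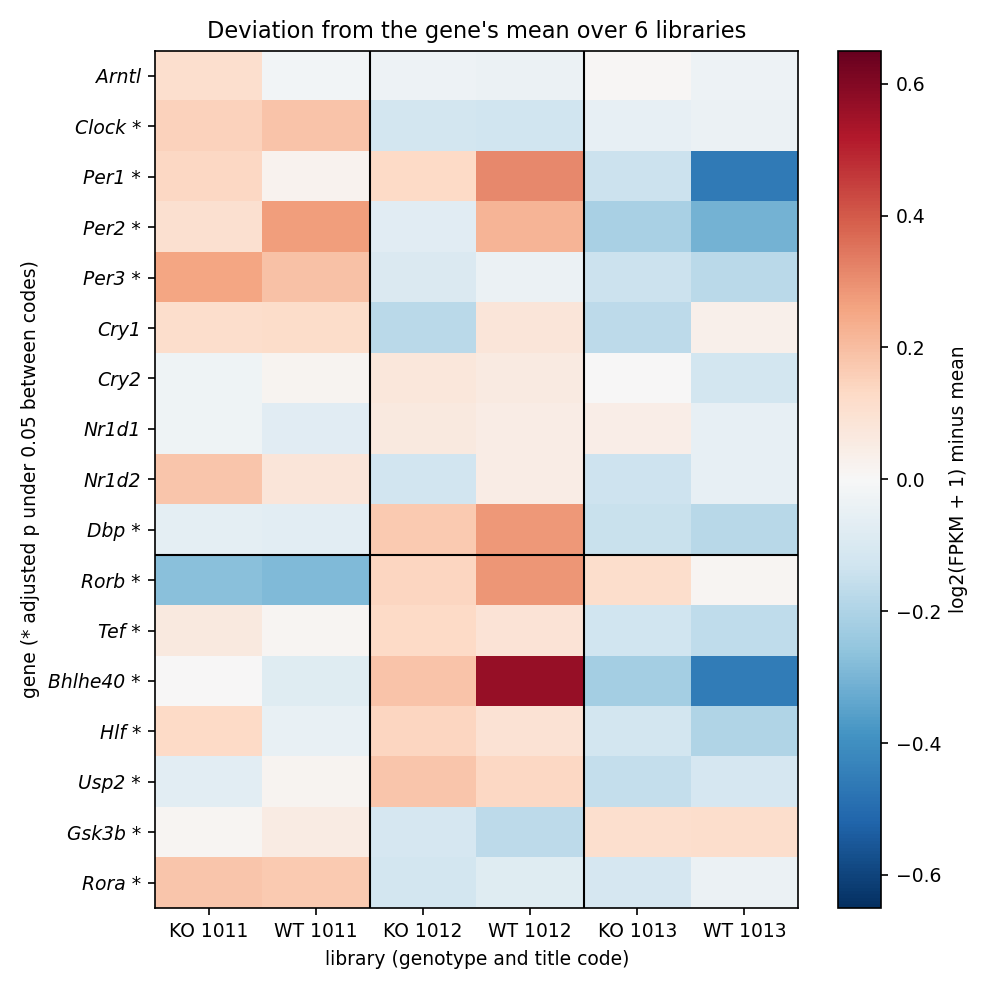
Deviation of each library (columns, by title code) from the gene's mean over 6 libraries on the log2(FPKM + 1) scale (red higher, blue lower), for the 10 members (above the line) and the 7 other clock-pathway genes that passed; stars mark genes that passed between codes. *Dbp* is highest in both code-1012 libraries and lowest in both code-1013 libraries. *Per1* is lowest in both code-1013 libraries and highest in WT1012 (23.4 FPKM), while KO1011 and KO1012 are level at 20.5 FPKM. *Arntl* is nearly flat.

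**Figure D4:**
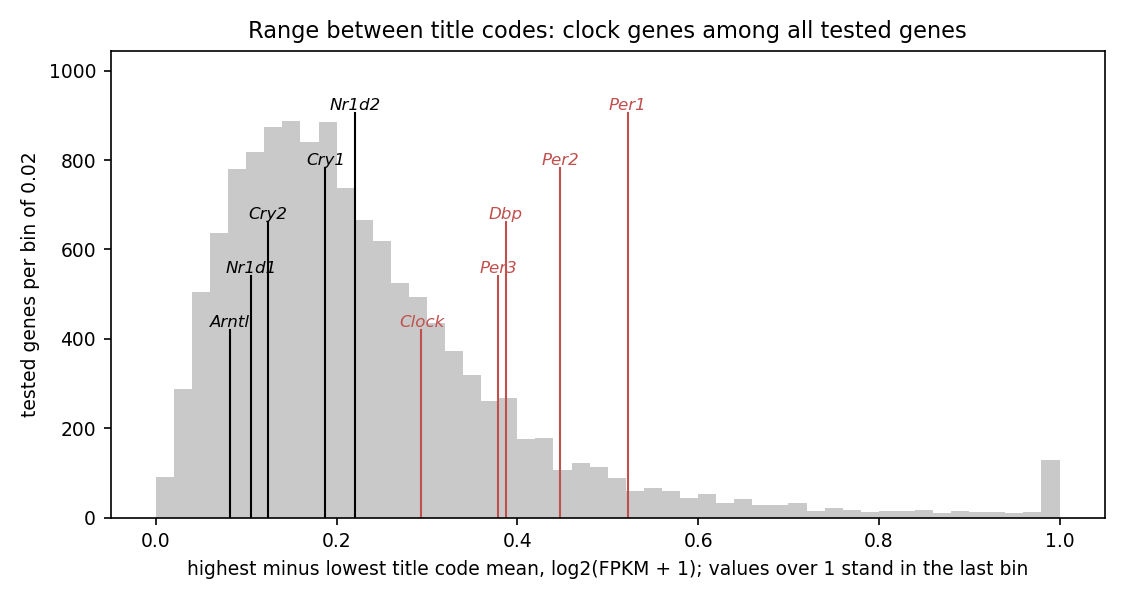
Number of tested genes (vertical axis) by the range between title code means on the log2(FPKM + 1) scale (horizontal axis), with the clock genes as lines, red for the 5 that passed. On this scale *Per1* lies at 0.52, *Per2* at 0.45 and *Arntl* at 0.08.

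Other genes of the clock pathway were read from a list of 22, of which 20 reached the filter of a mean of 1 FPKM and were tested. None passed between KO and WT by limma (0 also at an unadjusted p under 0.05 and by voom), with 11 positive and 9 negative differences. Between codes 7 of 20 passed, or 35%, close to the 30.6% of all genes. Of the PAR bZIP factors, which share the D-box with DBP, *Tef* averaged 77.4 FPKM in the code-1012 pair, 73.6 in the code-1011 pair and 64.7 FPKM in the code-1013 pair, and *Hlf* 29.3, 27.8 and 24.0 FPKM (adjusted p = 0.0158 and 0.0235). Both had the code order of *Dbp*. *Bhlhe40*, a repressor at E-boxes that activity induces, had the widest range of the list, at 31.9, 23.5 and 18.9 FPKM (0.72, adjusted p = 0.0178). Its KO minus WT was -0.38 in the code-1012 pair and 0.23 in the code-1013 pair. *Usp2*, a deubiquitinase of clock proteins, was at 18.4, 16.1 and 14.9 FPKM (adjusted p = 0.0250).

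Of the ROR receptors, which activate *Arntl* at the RORE, *Rorb* averaged 4.83, 4.25 and 3.14 FPKM in the code-1012, code-1013 and code-1011 pairs (adjusted p = 0.0143) and *Rora* 4.94, 4.01 and 3.92 FPKM in the code-1011, code-1013 and code-1012 pairs (adjusted p = 0.0398). The kinase gene *Gsk3b* was at 32.8, 31.0 and 27.4 FPKM in the code-1013, code-1011 and code-1012 pairs (adjusted p = 0.0257). *Npas2*, which can replace *Clock*, was at 11.1, 10.21 and 10.01 FPKM in the code-1011, code-1013 and code-1012 pairs and did not pass (adjusted p = 0.193). *Ciart*, a repressor of ARNTL and CLOCK, was at 5.34, 5.15 and 3.96 FPKM in the code-1012, code-1011 and code-1013 pairs (adjusted p = 0.150); both were named after their values were seen.

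Further lists were set beside the same 30.6% of all tested genes. Of 15 immediate early genes, which neurons switch on when active, 10 (66.7%) passed between codes; all 10 were highest in code-1012 and 9 were lowest in code-1013. *Arc* averaged 80.5 FPKM in the code-1012 pair, 58.5 in the code-1011 pair and 36.0 FPKM in the code-1013 pair, and *Dusp1* and *Nr4a1* had the same order (adjusted p = 0.00236, 0.00276 and 0.00347). That is the code order of *Per1*, *Dbp* and *Bhlhe40*, and its part in their values was not tested. Of 13 tested glucocorticoid-responsive genes 7 (53.8%) passed, led by *Mt1* (184, 123 and 98.0 FPKM in the code-1012, code-1011 and code-1013 pairs), *Mt2* and *Klf9*, the last highest in code-1011. Of 7 tested temperature and heat-shock genes 2 passed (28.6%, near the share of all genes), *Hspa5* and *Dnajb1* (adjusted p = 0.00825 and 0.0240), and *Hsph1* did not (adjusted p = 0.0517). None of these 3 lists had a gene called between KO and WT by limma, and 0 of their genes had an unadjusted p under 0.05.

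Signs of library make-up also moved with the codes. The share of reads in genes was 84.9% in KO and 84.8% in WT for code-1011, and 86.2% to 87.0% in the other 4 libraries. The noncoding RNAs *Malat1* and *Meg3*, chosen after their values were seen, averaged 22.4 and 185 FPKM in the code-1011 pair, 13.1 and 91.5 FPKM in the code-1013 pair, and 8.55 and 66.6 FPKM in the code-1012 pair. This is the code order of *Clock* and *Rora*. All 6 mature oligodendrocyte markers passed between codes, with sums of 2589, 2016 and 1336 FPKM in KO1011, KO1012 and KO1013, against 2263, 2806 and 1704 FPKM in WT, lowest in code-1013 for both. Of the 7 cortical excitatory neuron markers 3 passed, and of the 8 striatal markers 0. Astrocyte markers passed in 3 of 5, and 1 passed in each of endothelium, meningeal fibroblasts and microglia, beside 30.6% of all tested genes. By genotype, all 6 oligodendrocyte markers were lower in KO on average and all 4 endothelial markers higher (sums of 45.2 to 54.3 FPKM in KO and 42.6 to 50.1 FPKM in WT), with 0 called. Cortical excitatory neuron markers had 5 higher and 2 lower in KO, astrocytes 4 and 1, and microglia 1 and 3, also with 0 called. Of the 5 meningeal fibroblast markers 4 were higher in KO (0 called). Their sums did not overlap, at 44.6, 55.4 and 51.8 FPKM in KO1011, KO1012 and KO1013, against 41.2, 43.4 and 39.4 FPKM in WT. *Dcn* was the largest part of these sums, at 21.9 to 32.2 FPKM. The sums of the other marker lists overlapped, and of single genes 379 of the 12863 tested did not overlap. The part of these measures in the clock gene values was not tested.

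Genes with the profile nearest to that of *Dbp* over the 6 libraries were ranked by the root-mean-square distance between centred log2(FPKM + 1) profiles. The 5 nearest of 12862 were *Lamp5*, *Acta1*, *Cyp46a1*, *Camk2n1* and *Ensa*, at distances of 0.0240 to 0.0310, where the profile of *Dbp* itself has a size of 0.168. *Lamp5*, a membrane protein gene of cortical neurons, stood at 89.0, 103 and 82.1 FPKM in KO1011, KO1012 and KO1013 and at 90.7, 116 and 82.3 FPKM in WT. Nearest to the sign-turned profile were *Rev3l*, *Ppp1r3e*, *Zyg11b*, *Mapk7* and *B3glct*, at 0.0222 to 0.0340. *Rev3l*, a DNA polymerase gene, stood at 6.13, 5.38 and 6.85 FPKM in KO and at 6.42, 4.76 and 6.93 FPKM in WT. Clock members were not among either group of 5. The nearest member to *Dbp* was *Cry2*, at rank 1261 (distance 0.125). The nearest to the sign-turned profile were *Clock* at rank 3196 (distance 0.149) and *Arntl* at rank 3892 (0.158). A gene with a flat profile would stand at 0.168 from either profile, so *Clock* and *Arntl* were only a little nearer than that.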

How the data were processed

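Polyadenylated RNA of visual cortex was sequenced from stranded mRNA libraries, per the labels' protocols. The authors deposited 1 table of FPKM values on mm10, counted over exons with the transcripts of a gene condensed to 1 row, per the file headers, which also give each gene's exon length, the other value the authors' table supplied. The submitters' processing notes list FastQC, HOMER 4.8.3 and STAR 2.4.0k. The header command names 12 libraries, of which 6 were analysed here. No strand option stands in it, so a gene that overlaps another, or has an antisense partner, is uncertain. FPKM allows relative levels only.

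Reads were recovered from the FPKM steps, with 100% of 2532 to 2718 values per library (genes up to 1500 bp, under 200 reads) whole within 0.1 read. Errors from reads are counting errors alone.

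Tests used limma 3.58.1 under R 4.3.3, 2-sided and with an intensity trend, on log2(FPKM + 1) of the 12863 genes whose mean reached 1 FPKM. A gene was called where its p, adjusted over all of these (Benjamini-Hochberg), was under 0.05. The model was fitted for KO against WT without a block, and as an F test over title codes with genotype as a covariate. The scripts were tested on simulated data with planted changes larger than any member difference, and without code effects in the genotype test. That does not show whether small differences would be found. Python 3.11.15 with pandas 2.3.3, numpy 2.4.6 and matplotlib 3.10.9 was also used.

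Libraries with the same code deviated together (correlation of deviations from genotype means over tested genes 0.712, 0.67 and 0.432 for code-1011, code-1012 and code-1013), so the code was taken to pair the libraries and a replicate block was an alternative. Other pairings gave -0.61 to -0.061. Deviations within a genotype cancel out, so positive same-code values make the others negative on balance, which adds no separate evidence.

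The members, lists and tests were chosen with earlier results of these data known. Named genes are the 10 members, genes of the pathway list that were called or led it by p (up to 8; 1 is not reported here), 3 of each further list, the 5 nearest to each *Dbp* profile and *Chrdl1*. The alternatives were other pseudocounts, filters and scaling, voom on recovered reads, the block, no genotype term and leaving out libraries.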

Additional observations from a re-analysis of the deposited data

How the results depend on the processing

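Between KO and WT, 0 members and 0 other clock-pathway genes passed under each of the 15 alternatives. Over all genes the count of 1 became 2 with a pseudocount of 0.1, 6 without a filter on low values, 0 at a mean of 5 FPKM or more, and 0 to 4 when libraries or pairs were left out; the cause was not tested. With the title code as a replicate block it stayed 1, and the paired fit changed no other call. The sign of the difference turned for 6 members only when libraries were left out, with ranges of -0.092 to 0.077 for *Clock*, -0.13 to 0.26 for *Per1*, -0.11 to 0.11 for *Per3*, -0.021 to 0.070 for *Cry2*, -0.15 to 0.010 for *Nr1d2* and -0.12 to 0.11 for *Dbp*.

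Between title codes, 3936 genes, 5 members and 7 other clock-pathway genes passed. Without a filter on low values these were 1347, 1 (*Dbp*) and 1, and more genes were then tested. At a mean of 5 FPKM or more 3 members passed, since *Per2* and *Per3* are not tested there. With single libraries left out the counts were 2038 to 3923 genes, 1 to 5 members and 1 to 7 others, lowest without WT1013. The other alternatives left the count of members within 1.5 times the main count.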
